A study of Mus musculus with 30 samples.

Results

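The circadian clock genes *Per1*, *Per2*, *Per3*, *Cry1*, *Cry2*, *Nr1d1*, *Nr1d2*, *Dbp*, *Tef* and *Clock* were followed in mHypoA-2/12 cells, an immortalized line from the adult mouse hypothalamus. They were chosen by symbol, 10 of the 56941 genes counted in each library. Between 6 h and 24 h in vehicle, *Per3* rose 2.95-fold, *Tef* 1.90-fold and *Nr1d2* 1.50-fold, and *Clock* fell to 0.733 of its 6 h level. The same 4 genes passed the test in the mean of the 4 doses of cannabidiol (CBD), although at 3 µM alone *Clock* did not fall (log2 fold change 0.12, edgeR FDR = 0.659). None of the 9 genes that passed the filter on low counts (all but *Dbp*) was called between CBD and vehicle at either time.

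The mammalian clock is a feedback loop of transcription. CLOCK and BMAL1 (the product of *Arntl*) bind E-boxes and switch on the Per and Cry genes, whose proteins then repress CLOCK and BMAL1, while REV-ERBα and REV-ERBβ (*Nr1d1* and *Nr1d2*) and the ROR receptors act on *Arntl* through the ROR element. The factors DBP, TEF and HLF activate, and NFIL3 represses, genes with a D-box. In the hypothalamus the suprachiasmatic nucleus keeps daily time, and clock genes are also expressed in other hypothalamic nuclei and in cultured cells.

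The 30 libraries formed 10 groups of 3, which were vehicle (0.1% DMSO) and CBD at 0.325, 0.75, 1.5 or 3 µM, each after 6 h and after 24 h. All cells were of this 1 line, with no genetic change between groups. The labels give neither the hour of day at harvest nor whether the 3 libraries of a group came from separate cultures, so that p-values measure the spread between libraries, which may be technical. Treatment medium was added at the start, so that hours of exposure, hours since the medium change and hour of day cannot be told apart between 6 h and 24 h. The authors name serum in the growth medium and not in the treatment medium, so that any loss of serum falls together with that change. The libraries carry the names A1 to A30, with vehicle as A1 to A3 at 6 h and A28 to A30 at 24 h. All libraries of 6 h are A1 to A15 and all of 24 h A16 to A30, so that any order of handling by number cannot be told apart from time.

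Reads on genes ranged from 1839621 to 4420675 per library, of which 574 to 1948 lay on the 10 clock genes. Levels are given as CPM, the counts of a gene relative to all counts on genes of the library, with library sizes scaled by TMM. Each library is a bulk sample, so that fewer cells expressing a gene and less RNA per cell cannot be told apart. The mesenchymal markers (*Col1a1*, *Col1a2*, *Col3a1*, *Vim*, *Fn1*, *Pdgfrb*) summed to 6250 to 8200 CPM at 6 h and 6600 to 7960 CPM at 24 h, and 10 neuronal markers to 159 to 227 CPM and 149 to 224 CPM. Of those 10, 7 had a median over 1 CPM, led by *Tubb3* with 4123 reads in the 30 libraries together, *Nefm* with 3255 and *Eno2* with 3131, while *Rbfox3* had 47, *Elavl3* 31 and *Snap25* 4. Both sums overlapped between the times. Within the neuronal sum, single genes went in opposite directions, with overlap. At 6 h *Nefm* ran from 33.2 to 82.26 CPM and *Nefl* from 14.31 to 31.84 CPM. At 24 h they ran from 17.98 to 70.39 CPM and from 3.516 to 20.92 CPM. *Map2* ran from 9.022 to 29.92 CPM at 6 h and from 16.89 to 35.5 CPM at 24 h. Microglia markers summed to 154 to 367 CPM and then 224 to 346 CPM. Hypothalamic peptide genes summed to 1.65 to 9.28 CPM and then 1.1 to 7.83 CPM. The part of these markers in the results was not tested.

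The upstream sequences of the genes that moved are shown because the clock acts through short motifs near the start site. RefSeq windows on GRCm38.p6, from 250 bases before to 50 after the start site (300 bases in all), were found for 9 of the 10 genes, in 13 windows. The motifs searched on both strands were the E-box CACGTG, the E'-box CACGTT, the D-box TTANGTAA, the letters TNGGTCA and the CRE TGACGTCA. With any base allowed at N, TNGGTCA is looser than the core of the ROR element, and a match to it need not be that element. A base could belong to more than 1 motif. Capitals mark every match.
Per3, chr4:151044616-151044915, minus strand: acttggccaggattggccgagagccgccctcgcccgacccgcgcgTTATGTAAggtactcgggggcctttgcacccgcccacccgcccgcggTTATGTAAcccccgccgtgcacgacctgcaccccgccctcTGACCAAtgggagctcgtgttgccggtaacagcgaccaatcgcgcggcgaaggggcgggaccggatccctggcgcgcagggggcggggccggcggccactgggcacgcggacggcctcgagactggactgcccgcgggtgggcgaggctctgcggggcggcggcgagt
Tef, first window, chr15:81802423-81802722, plus strand: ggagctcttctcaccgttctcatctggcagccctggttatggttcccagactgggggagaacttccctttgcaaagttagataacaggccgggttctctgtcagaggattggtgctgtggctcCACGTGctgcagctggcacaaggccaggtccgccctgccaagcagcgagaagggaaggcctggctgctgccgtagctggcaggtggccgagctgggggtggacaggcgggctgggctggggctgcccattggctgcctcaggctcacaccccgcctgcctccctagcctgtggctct
Tef, second window, chr15:81811164-81811463, plus strand: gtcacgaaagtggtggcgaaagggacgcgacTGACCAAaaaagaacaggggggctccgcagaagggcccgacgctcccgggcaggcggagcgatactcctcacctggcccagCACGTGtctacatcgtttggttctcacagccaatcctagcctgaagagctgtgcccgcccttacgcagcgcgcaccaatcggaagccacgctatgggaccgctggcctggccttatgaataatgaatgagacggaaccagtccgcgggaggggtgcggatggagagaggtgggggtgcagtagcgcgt
Nr1d2, chr14:18239057-18239356, minus strand: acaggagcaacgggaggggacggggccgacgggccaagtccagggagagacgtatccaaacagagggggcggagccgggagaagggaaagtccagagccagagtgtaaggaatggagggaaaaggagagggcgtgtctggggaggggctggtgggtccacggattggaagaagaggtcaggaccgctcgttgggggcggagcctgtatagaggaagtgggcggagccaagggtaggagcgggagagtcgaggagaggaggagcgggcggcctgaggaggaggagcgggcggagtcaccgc
Clock, first window, chr5:76304743-76305042, minus strand: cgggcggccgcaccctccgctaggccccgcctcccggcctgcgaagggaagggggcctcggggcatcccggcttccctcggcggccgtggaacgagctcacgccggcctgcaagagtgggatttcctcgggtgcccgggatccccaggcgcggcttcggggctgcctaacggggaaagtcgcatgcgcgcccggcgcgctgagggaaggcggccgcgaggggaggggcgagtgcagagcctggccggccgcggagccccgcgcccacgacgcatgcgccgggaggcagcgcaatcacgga

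The *Per3* window held 2 D-boxes, TTATGTAA at −205 and at −158 from the start site. It also held a match to the loose TNGGTCA on the opposite strand at −118, read as TGACCAA. A D-box was found in 2.32% of the 32851 windows of the table, and 2 or more in 0.198%. Each *Tef* window held 1 E-box, at −127 in the first and at −138 in the second, and an E-box was found in 7.15% of all windows. None of the 5 motifs was found in the *Nr1d2* window or in the 3 *Clock* windows, which says only that these letters are not there. Among the genes that did not pass the test in vehicle, the E-box or E'-box letters were found in the windows of *Per1* (first window), *Cry1*, *Cry2* and *Nr1d1*, with E'-boxes in 4.68% of all windows. The loose TNGGTCA was found in 11% and the CRE in 1.79% of all windows. These matches are a description of the letters and not of binding.

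The first question was whether the clock genes changed between 6 h and 24 h in vehicle, with no CBD. Of the 9 genes with enough reads, 4 passed an FDR of 0.1, against 26.7% of the 12790 genes tested. At 24 h 3 were higher, against 12.5% of all genes, and 1 was lower, against 14.2%. In vehicle the 3 libraries of 24 h lay on one side of the 3 of 6 h for 31.8% of all genes tested. Lack of overlap in vehicle alone, as given below for single genes, was thus common. FDR values are Benjamini-Hochberg adjusted p-values of the quasi-likelihood test of edgeR, taken over every gene in the comparison.

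*Per3* encodes a period protein, a partner of the cryptochromes. It lies at chr4:151003652-151044665 on the minus strand (GRCm38), inside the span of *Camta1* on the same strand. In the vehicle libraries of 6 h it was at 14.4, 22.3 and 11.9 CPM, and in those of 24 h at 39.2, 43.9 and 56.9 CPM. Every 24 h library was above every 6 h library. The log2 fold change was 1.56 (standard error 0.25, edgeR FDR = 3.166e-05), and 4.51% of all genes tested had a larger change in either direction. *Camta1* itself was at 18.4 CPM at 6 h and 12.2 CPM at 24 h (log2 fold change −0.66, edgeR FDR = 0.101), so that the gene around *Per3* had a difference of the opposite sign that did not pass the test.

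*Tef* encodes a D-box activator of the PAR bZIP family (chr15:81802421-81826863, plus strand). It was at 120.0, 78.5 and 63.8 CPM at 6 h and at 161, 132 and 198 CPM at 24 h in vehicle. The groups did not overlap, although the 6 h library A1 stood well above A2 and A3. The log2 fold change was 0.92 (standard error 0.18, edgeR FDR = 0.0002796).

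*Nr1d2* encodes the nuclear receptor REV-ERBβ, a repressor at the ROR element (chr14:18204054-18239127, minus strand). Its levels were 47.6, 46.2 and 33.7 CPM at 6 h and 62.4, 57.4 and 68.3 CPM at 24 h. The groups did not overlap, with a log2 fold change of 0.58 (standard error 0.19, edgeR FDR = 0.0299). Without library A3 of 6 h the log2 fold change was 0.43 and the call was lost (edgeR FDR = 0.18).

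*Clock* encodes the partner of BMAL1 in the activating complex (chr5:76209868-76304792, minus strand). It was at 75.2, 72.2 and 77.6 CPM at 6 h and at 46.6, 57.1 and 62.3 CPM at 24 h in vehicle. All 24 h libraries were below all 6 h libraries, with a log2 fold change of −0.45 (standard error 0.14, edgeR FDR = 0.0231). The call was lost without library A28, which held the lowest level (log2 fold change −0.32, edgeR FDR = 0.186), with no filter on low counts (−0.40, FDR = 0.182) and with only the vehicle groups in the fit (−0.43, FDR = 0.118).

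**Figure D1:**
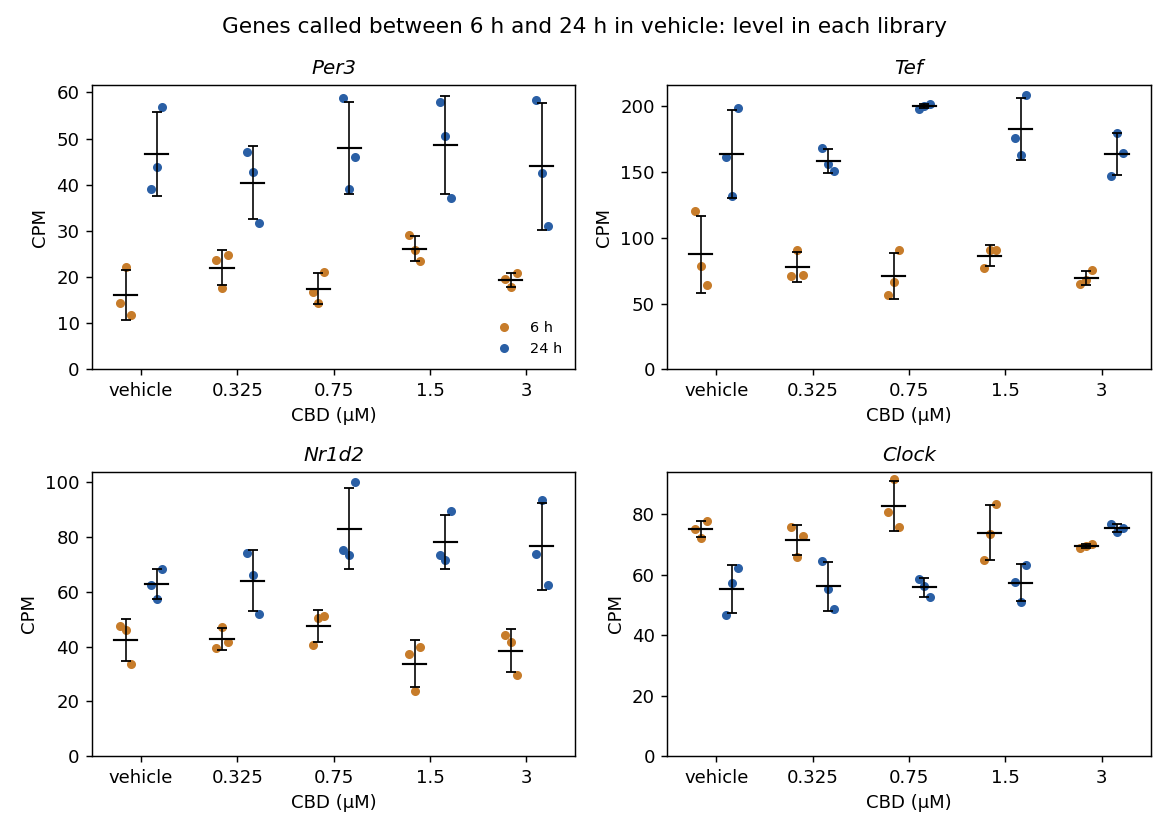
Level of *Per3*, *Tef*, *Nr1d2* and *Clock* in each of the 30 libraries, in CPM from 0 on a linear axis, by CBD dose in µM, with 6 h in orange and 24 h in blue. Bars are the mean ± SD of 3 libraries. The blue points of *Per3*, *Tef* and *Nr1d2* lie above all orange points of the same gene, and those of *Clock* lie below the orange points of the same dose except at 3 µM.

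The other 5 genes tested did not pass in vehicle, and their intervals give the folds that are compatible with these libraries. Among the other period genes, *Per1* (chr11:69095217-69109960, plus strand), which is also induced through CREB, was at 16.6, 16.98 and 24.6 CPM at 6 h and 29.4, 24.4 and 23.1 CPM at 24 h. The groups overlapped, and the fold of 24 h over 6 h was 1.30 (95% interval 0.949 to 1.78, edgeR FDR = 0.244). *Per2* (chr1:91415982-91459324, minus strand) was at 7.74, 9.02 and 8.84 CPM and then at 6.26, 8.25 and 5.36 CPM. Its groups overlapped too, with a fold of 0.772 (0.419 to 1.42, edgeR FDR = 0.595).

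*Cry1* and *Cry2* encode the cryptochromes, the main repressors of CLOCK and BMAL1. *Cry1* (chr10:85131700-85185064, minus strand) was at 8.30, 25.5 and 22.1 CPM at 6 h and 11.6, 14.5 and 12.7 CPM at 24 h, with library A1 far below A2 and A3. The fold was 0.682 (0.436 to 1.07, edgeR FDR = 0.228), and without A1 the gene passed the test (log2 fold change −0.86, edgeR FDR = 0.0476). *Cry2* (chr2:92403646-92434043, minus strand) was at 22.1, 33.4 and 13.5 CPM and then at 28.1, 29.7 and 31.8 CPM. Its fold was 1.34 (0.95 to 1.88, edgeR FDR = 0.233), and without A2, which held the highest level of 6 h, it passed the test (log2 fold change 0.80, edgeR FDR = 0.0322). For both cryptochromes, then, 1 library of the 6 h vehicle group decided the call.

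*Nr1d1* encodes REV-ERBα (chr11:98767932-98775333, minus strand). It was at 5.53, 12.7 and 10.5 CPM at 6 h and 14.6, 7.92 and 11.1 CPM at 24 h, with a fold of 1.17 (0.724 to 1.88, edgeR FDR = 0.699). The groups overlapped throughout. Its last 1075 bases overlap *Thra* on the other strand, which rose from 122 to 231 CPM (log2 fold change 0.94, edgeR FDR = 1.896e-05). The strand setting of the counting is not given in the sources used here, so that reads of the overlap could belong to either gene.

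*Dbp*, a D-box activator like *Tef* and a strong output of the clock in many tissues (chr7:45705088-45710203, plus strand), was left out by the filter on low counts. It had 50 reads in the 30 libraries together, 25 at 6 h and 25 at 24 h, and 10 libraries had none. A library at 0 allows up to 3 reads, or 1.63 CPM in the smallest library and 0.679 CPM in the largest, for counting error only. Its 3′ end overlaps *Sphk2* on the other strand over 737 bases. With no filter it was not called in any comparison, with a log2 fold change of 24 h against 6 h of 0.69 in vehicle (edgeR FDR = 0.959) and −0.41 with CBD (FDR = 0.9998).

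**Figure D2:**
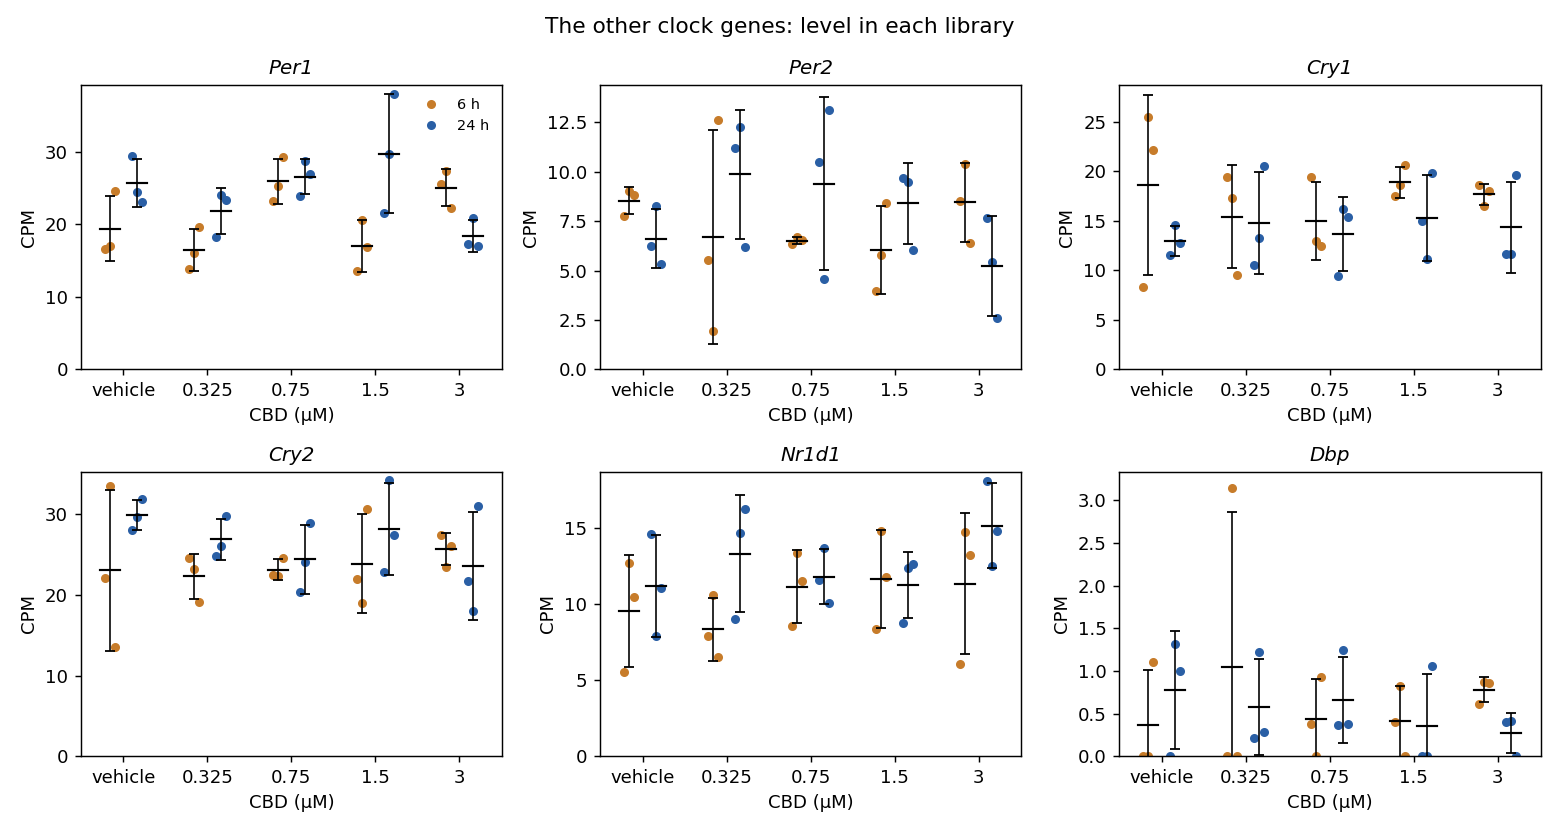
Level of *Per1*, *Per2*, *Cry1*, *Cry2*, *Nr1d1* and *Dbp* in each library, in CPM from 0 on linear axes that differ between panels, by CBD dose in µM, with 6 h in orange and 24 h in blue. Bars are the mean ± SD of 3 libraries. In vehicle the 2 times overlap for all 6 genes, and *Dbp* stays at or below 3.14 CPM in every library.

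The 12 CBD-treated libraries of each time give a second comparison of 24 h with 6 h that shares no library with vehicle. The same 4 genes passed the test in the mean over the 4 doses, 4 of 9 against 53.6% of the 12790 genes tested. *Per3*, *Tef* and *Nr1d2* were higher, against 26% of all genes, and *Clock* was lower, against 27.6%. The count of 4 of 9 was near the share of all genes, and nothing is read from it beyond the values of each gene.

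The levels of *Per3* ran from 14.5 to 29.1 CPM with a median of 21.1 CPM in the CBD libraries of 6 h, and from 31.0 to 58.7 CPM with a median of 44.4 CPM at 24 h. *Tef* ran from 56.5 to 90.8 CPM (median 73.5) and then from 147 to 208 CPM (median 172). *Nr1d2* ran from 23.9 to 51.3 CPM (median 41.2) and then from 51.9 to 100 CPM (median 73.6). For these 3 genes the times did not overlap, whereas *Clock* ran from 64.9 to 91.7 CPM (median 73.0) and then from 48.6 to 76.8 CPM (median 58.1), with overlap. Of all genes tested, 3.1% had the CBD libraries of 24 h on one side of those of 6 h.

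The log2 fold change in the mean of the doses was 1.10 for *Per3* (standard error 0.12, edgeR FDR = 1.763e-09), 1.21 for *Tef* (0.09, FDR = 1.294e-13), 0.90 for *Nr1d2* (0.10, FDR = 1.359e-09) and −0.29 for *Clock* (0.07, FDR = 0.001068). *Tef* stood at rank 28 of 12790 by p. *Per1* and *Nr1d1* were close to the threshold, with log2 fold changes of 0.20 (edgeR FDR = 0.14) and 0.29 (edgeR FDR = 0.162). The edgeR FDR of *Per2*, *Cry1* and *Cry2* lay between 0.312 and 0.467.

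Over vehicle and CBD together, *Per3*, *Tef* and *Nr1d2* had all 15 libraries of 24 h above all 15 of 6 h. Of all 12790 genes tested, 202 did so, or 1.58%. The lowest 24 h levels were 31.0 CPM for *Per3*, 132 CPM for *Tef* and 51.9 CPM for *Nr1d2*, just above the highest 6 h levels of 29.1, 120.0 and 51.3 CPM. Each of these 3 genes therefore separated the times in every library, with a narrow gap.

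Dose by dose, *Per3*, *Tef* and *Nr1d2* were called at all 4 doses. The lowest dose had 4 of 9 clock genes called between 24 h and 6 h, against 25.9% of all genes. The count was 4 at 0.75 µM, against 26.5%, and 5 at 1.5 µM, against 23.5%. The highest dose had 3, against 16.6%. The log2 fold change of *Per3* was 0.88, 1.45, 0.88 and 1.18 from the lowest to the highest dose, that of *Tef* 1.02, 1.48, 1.08 and 1.24, and that of *Nr1d2* 0.58, 0.80, 1.22 and 0.99, with standard errors of 0.17 to 0.24.

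The group means of *Per3* at 6 h were 22.1 ± 3.85, 17.5 ± 3.38, 26.2 ± 2.77 and 19.4 ± 1.57 CPM (SD, n = 3) from the lowest to the highest dose, beside 16.2 ± 5.43 CPM in vehicle. At 24 h they were 40.5 ± 7.88, 47.9 ± 9.95, 48.6 ± 10.6 and 44.0 ± 13.7 CPM, beside 46.7 ± 9.20 CPM. In order of level, all 5 groups of 24 h came before all 5 groups of 6 h, and within a time most neighbouring groups overlapped.

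The group means of *Tef* at 6 h were 77.8 ± 11.2, 71.2 ± 17.5, 86.1 ± 8.02 and 69.3 ± 5.34 CPM (SD, n = 3) over the doses, and 87.4 ± 29.2 CPM in vehicle. At 24 h they were 158 ± 9.27, 199.7 ± 1.86, 182 ± 23.3 and 163 ± 16.2 CPM, and 164 ± 33.4 CPM in vehicle. Its groups fell into the same order by time. The means of *Nr1d2* were 42.8 ± 3.88, 47.5 ± 5.88, 33.8 ± 8.61 and 38.4 ± 7.85 CPM at 6 h, and 64.0 ± 11.2, 83.0 ± 14.8, 78.2 ± 9.90 and 76.5 ± 15.8 CPM at 24 h. In vehicle *Nr1d2* was at 42.5 ± 7.64 and 62.7 ± 5.46 CPM, the latter being the lowest mean of 24 h.

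Of the genes not called in vehicle, the group means over the 10 groups ran from 5.23 to 9.88 CPM for *Per2*, from 12.9 to 18.9 CPM for *Cry1*, from 22.3 to 29.9 CPM for *Cry2* and from 8.35 to 15.2 CPM for *Nr1d1*. The highest mean of *Nr1d1* was that of 3 µM at 24 h (15.2 ± 2.80 CPM, SD, n = 3), and the lowest mean of *Per2* was in the same group (5.23 ± 2.52 CPM). No contrast between times at a single dose was called for these 4 genes, with edgeR FDR values from 0.17 to 0.956.

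*Clock* fell by 0.34 at 0.325 µM (edgeR FDR = 0.0818), by 0.57 at 0.75 µM (FDR = 0.004576) and by 0.36 at 1.5 µM (FDR = 0.0803) on the log2 scale. At 3 µM its log2 fold change was 0.12 (95% interval −0.171 to 0.408, edgeR FDR = 0.659), with 68.8, 69.5 and 70.1 CPM at 6 h and 76.8, 73.9 and 75.5 CPM at 24 h. *Per1* was called at 1.5 µM alone (log2 fold change 0.82, edgeR FDR = 0.0104), where it went from 13.5, 20.6 and 16.8 CPM to 21.5, 29.7 and 38.0 CPM. At 3 µM it went from 25.6, 27.4 and 22.2 CPM to 17.3, 20.9 and 17.02 CPM (log2 fold change −0.45, edgeR FDR = 0.216). These differences between doses were themselves tested, in a comparison chosen after the levels of *Clock* and *Per1* had been seen. No clock gene passed that test for a difference among doses in the change from 6 h to 24 h, against 0.0156% of all genes. The edgeR FDR was 0.331 for *Per1* (unadjusted p = 0.002695) and 0.363 for *Clock* (unadjusted p = 0.01276). In that test 2 of the 9 genes had an unadjusted p under 0.05, against 10.1% of all genes.

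**Figure D3:**
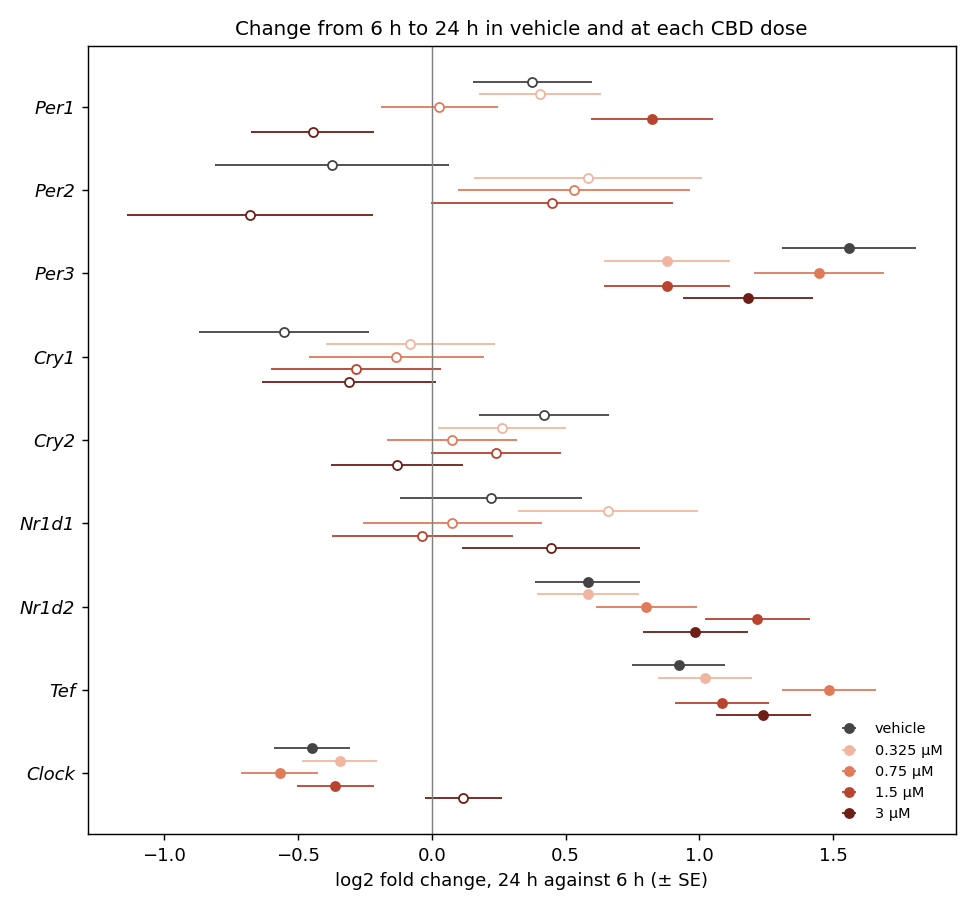
Log2 fold change of 24 h against 6 h for the 9 clock genes tested, in vehicle (grey) and at each CBD dose (light to dark red), with bars of ± 1 standard error from the fit of all 30 libraries. Filled points passed an edgeR FDR of 0.1. *Per3*, *Nr1d2* and *Tef* are filled and to the right of 0 in every group, and *Clock* is filled and to the left in every group but 3 µM.

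The second question was whether CBD moved the clock genes away from vehicle. At 6 h, 0 of 9 passed for the mean of the doses, against 0.749% of 12012 genes. There 0 of 9 had an unadjusted p under 0.05, against 10.3% of all genes. At 24 h it was again 0 of 9, against 0.107% of 12118 genes, with 0 of 9 at an unadjusted p under 0.05, against 6.73%. DESeq2 also called 0 of them at either time.

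The largest difference at 6 h was that of *Per3*, at 11.9 to 22.3 CPM in vehicle and 14.5 to 29.1 CPM with CBD (fold 1.33, 95% interval 0.976 to 1.80, edgeR FDR = 0.538). The smallest FDR at 24 h was that of *Nr1d2*, at 57.4 to 68.3 CPM in vehicle and 51.9 to 100 CPM with CBD (fold 1.196, 0.989 to 1.45, edgeR FDR = 0.779). The widths of the intervals differed between genes. For *Tef* the fold of CBD over vehicle lay between 0.917 and 1.24 at 24 h, and for *Clock* between 0.925 and 1.30, while for *Per2* it lay between 0.763 and 1.90. Folds within these intervals are compatible with the data, and the intervals are not limits of detection.

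Each dose alone against vehicle gave 0 of 9 as well. The shares of all genes called at 6 h were 0.2%, 0.0749%, 0.0999% and 0.05% from the lowest to the highest dose, and at 24 h they were 0.066%, 0.0825%, 0.0413% and 0.00825%. An unadjusted p under 0.05 was found for *Per3* at 1.5 µM and 6 h (log2 fold change 0.72, edgeR FDR = 0.457). At 24 h it was found for *Nr1d2* at 0.75 µM (0.39, edgeR FDR = 0.575), and at 3 µM for *Per1* (−0.48, edgeR FDR = 0.525) and *Clock* (0.46, edgeR FDR = 0.507). Of all genes, 7.91% had such a p at 1.5 µM and 6 h, and at 24 h 7.63% at 0.75 µM and 9.16% at 3 µM. The difference between the times in the effect of CBD was called for 0 of 9 genes, against 0.235% of all genes, with 0 calls by DESeq2. No clock gene had an unadjusted p under 0.05 there, against 6.52% of all genes.

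**Figure D4:**
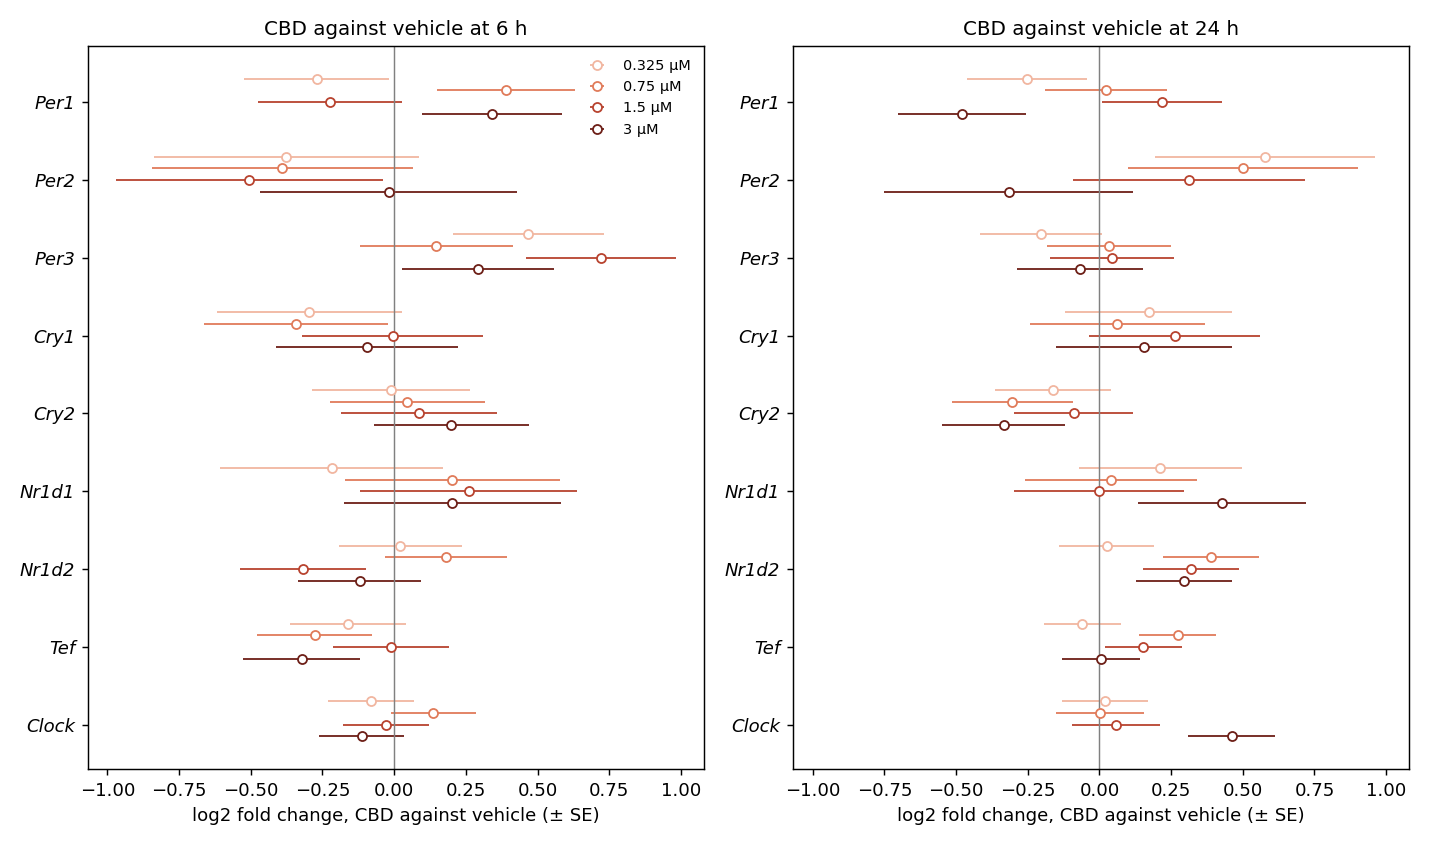
Log2 fold change of each CBD dose against vehicle at 6 h (left) and at 24 h (right) for the 9 clock genes tested, with bars of ± 1 standard error from the fit of the 15 libraries of that time. Open points did not pass an edgeR FDR of 0.1, and every point is open. *Clock* at 3 µM and 24 h lies farthest from 0 relative to its error, at 0.46.

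Among the doses, without vehicle, 0 of 9 clock genes differed at 6 h, where no gene of all was called (0%) by edgeR or by DESeq2 and 452 had an unadjusted p under 0.05. Only *Per1* had an unadjusted p under 0.05 there, at 0.01558 in edgeR, with means of 16.5, 25.9, 16.99 and 25.1 CPM from the lowest to the highest dose. Neither a slope over log2 dose nor 3 µM against the lower doses gave a call at 6 h, for a clock gene or for any gene (0% each), with 0 of 9 clock genes at an unadjusted p under 0.05 by edgeR, and 513 and 624 of all genes. At 24 h, 0 of 9 passed the test for any difference among the doses, against 1.93% of all genes, and 0 of 9 for the slope, against 3.13%. The unadjusted p was under 0.05 in the first for *Per1* (edgeR FDR = 0.242) and *Clock* (FDR = 0.208), against 14.5% of all genes. In the second it was so for *Per2* (edgeR FDR = 0.273) and *Clock* (FDR = 0.151), against 16.5%.

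*Clock* stood apart at 3 µM and 24 h. The 3 libraries there were at 76.8, 73.9 and 75.5 CPM, and the other 12 libraries of 24 h ran from 46.6 to 64.6 CPM, with a median of 56.6 CPM. In a comparison of 3 µM with the 3 lower doses, chosen after these levels had been seen, *Clock* was higher by 0.43 on the log2 scale (standard error 0.12, edgeR FDR = 0.0373), the 1 clock gene called of 9, against 10.5% of all genes. Since the comparison was chosen on this gene, its p is not independent of the choice. The share of reads outside genes moved with the dose, at 20.8% to 21.7% in the 3 libraries of 3 µM and 18.7% to 20.4% in the lower doses. With that share as a covariate *Clock* was no longer called (log2 fold change 0.26, edgeR FDR = 0.708), and it was also lost without library A16 or A18. In vehicle at 24 h the share was 20.9% to 22.2% and *Clock* was at 46.6 to 62.3 CPM. Against vehicle, *Clock* at 3 µM was not called (log2 fold change 0.46, edgeR FDR = 0.507). The part of the share in that difference was not tested.

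*Per1* and *Per2* lay on the other side at that dose. *Per1* was at 17.3, 20.9 and 17.02 CPM at 3 µM and at 18.2 to 38.0 CPM in the lower doses of 24 h (log2 fold change −0.47, edgeR FDR = 0.135). It passed the test without library A17 and without library A19, with an edgeR FDR no lower than 0.09. *Per2* was at 7.64, 5.43 and 2.62 CPM against 4.57 to 13.1 CPM (−0.78, edgeR FDR = 0.208). Both genes overlapped with the lower doses.

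Around these genes, a list of 33 further genes of the clock pathway was drawn up by role, of which 26 passed the filter on low counts. In vehicle 4 were higher and 5 lower at 24 h, 9 of 26 against 26.7% of all genes, with a median log2 fold change of −0.08 against −0.03 over all genes. In the mean of the CBD doses 7 were higher and 6 lower at 24 h than at 6 h, against 53.6% of all genes, with a median of −0.06 against −0.01. With each library left out in turn, 4 of the 9 genes called in vehicle kept their call throughout (*Rora*, *Nfil3*, *Hlf* and *Csnk1e*), and 11 of the 13 called with CBD (all but *Bhlhe41* and *Klf10*).

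Of the activators, *Arntl* was at 12.7, 17.5 and 22.1 CPM at 6 h and 16.9, 9.57 and 15.1 CPM at 24 h in vehicle, which overlapped (log2 fold change −0.35, edgeR FDR = 0.432). With CBD its median went from 19.15 CPM at 6 h to 14.01 CPM at 24 h, and it was lower at 24 h (−0.52, edgeR FDR = 0.003778). *Npas2*, a substitute for *Clock* in some tissues, had 41 reads in all and was not tested. *Rora*, the receptor that activates at the ROR element, rose from 6 h to 24 h in vehicle (0.65, edgeR FDR = 0.0246). It also rose in the mean of the CBD doses (0.45, edgeR FDR = 0.0005435), with overlap (18.3 to 40.5 CPM and then 28.1 to 46.0 CPM). Between the times at a single dose, *Rora* was called at 0.75 µM alone and *Arntl* at none.

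The other D-box factors tested were also higher at 24 h in vehicle and in the mean of the CBD doses. *Nfil3*, the D-box repressor, was at 29.6 to 40.4 CPM and then at 53.6 to 56.4 CPM in vehicle (log2 fold change 0.71, edgeR FDR = 0.001704). It also rose from 6 h to 24 h in the CBD libraries (0.32, edgeR FDR = 0.00094). *Hlf*, an activator, had 4 reads in the 6 h vehicle libraries and 31 in those of 24 h (2.37, edgeR FDR = 0.0238). With each library left out, this ran from 1.96 to 3.25, and the edgeR FDR reached 0.09997, barely under the threshold. In the CBD libraries *Hlf* had 50 and 129 reads (1.23, edgeR FDR = 0.00181). In these 2 comparisons the activators *Tef* and *Hlf* and the repressor *Nfil3* were thus alike higher at 24 h. Dose by dose, *Nfil3* was called between the times at 0.325 and 0.75 µM, and *Hlf* at 0.325 and 1.5 µM. Neither was called at 3 µM, where *Tef* was.

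Among kinases, *Csnk1e*, a casein kinase that phosphorylates PER proteins, fell from 6 h to 24 h in vehicle (−0.59, edgeR FDR = 0.005401) and with CBD (−0.45, FDR = 6.993e-06). *Csnk1d*, its close relative, passed with CBD alone (0.20, edgeR FDR = 0.009343), as did the E-box repressor *Bhlhe41* (0.48, FDR = 0.0655). *Timeless* passed in vehicle alone (0.39, edgeR FDR = 0.0692). *Timeless* lost its call without A1, A3, A28 or A29 (0.35 to 0.39, edgeR FDR = 0.12 to 0.194), and *Bhlhe41* its own without A12, A14, A19 or A24 (0.41 to 0.44, FDR = 0.103 to 0.13). A call in 1 of the comparisons and not in the other does not show that they differ. The test of that difference called 0 of the 26 genes, with edgeR and an FDR of 0.1, against 0.235% of all genes.

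The next values are of 24 h against 6 h in the mean of the CBD doses, and not of CBD against vehicle. Of the outputs, *Klf9* was lower at 24 h (−0.26, edgeR FDR = 0.005234) and *Wee1*, a kinase of the cell cycle, was higher (0.27, FDR = 0.0262). *Crtc1*, a coactivator of CREB, was higher at 24 h (0.34, edgeR FDR = 0.0229). *Nampt*, an enzyme of NAD synthesis, was lower (−0.27, edgeR FDR = 0.0196), as was *Crem*, a target of CREB (−0.88, FDR = 6.392e-06). Each of these 5 genes kept its call in this comparison of times with each library left out. At single doses, *Klf9* and *Nampt* were called between the times at 3 µM alone, and *Crem* at 0.325, 0.75 and 1.5 µM. *Wee1* and *Crtc1* were called at no single dose. *Klf10* was also called lower at 24 h in the mean of the CBD doses (−0.40, edgeR FDR = 0.0765). It lost its call in 16 of the 30 fits with a library left out (−0.30 without A15, the smallest, FDR = 0.198).

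In vehicle, *Nampt*, *Klf10*, *Crem* and *Noct* were called lower at 24 h over all libraries, and none of the 4 was called without library A3 of 6 h. *Noct*, a phosphatase with a daily rhythm in many tissues, was at 8.30, 11.1 and 23.2 CPM at 6 h and 8.11, 4.62 and 7.70 CPM at 24 h. *Klf10* was at 15.5, 12.7 and 39.5 CPM at 6 h and 11.8, 11.9 and 17.4 CPM at 24 h, and *Crem* at 16.04, 11.7 and 32.0 CPM and 14.8, 11.2 and 12.7 CPM. A3 was the highest of the 6 libraries for all 3 genes, and the times overlapped for *Klf10* and *Crem*. Over all libraries the log2 fold change was −1.10 for *Noct* (edgeR FDR = 0.0424), −0.79 for *Klf10* (FDR = 0.0931), −0.68 for *Crem* (FDR = 0.0951) and −0.48 for *Nampt* (FDR = 0.0739). Without A3 it was −0.49 for *Noct* (edgeR FDR = 0.516), −0.03 for *Klf10* (FDR = 0.964), −0.07 for *Crem* (FDR = 0.911) and −0.35 for *Nampt* (FDR = 0.305). *Noct* also lost its call without A29 (−0.89, edgeR FDR = 0.156), and *Nampt* without A28, A29 or A30 (−0.52 to −0.40, FDR = 0.113 to 0.223). *Klf10* lost its call in 21 of the 30 fits and *Crem* in 25.

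*Noct* was also the 1 gene called of the 25 of the list tested between CBD and vehicle at 6 h, against 0.749% of all genes. Its log2 fold change was −1.21 (edgeR FDR = 0.0765), with 3.36 to 11.5 CPM in the CBD libraries, which overlapped with vehicle. Without A3 the value was −0.61 (edgeR FDR = 0.532), and the call was lost in 8 of the 15 fits with a library left out. Both *Noct* comparisons share the 6 h vehicle libraries. At 24 h 0 of the 26 genes tested were called between CBD and vehicle by edgeR, against 0.107% of all genes.

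**Figure D5:**
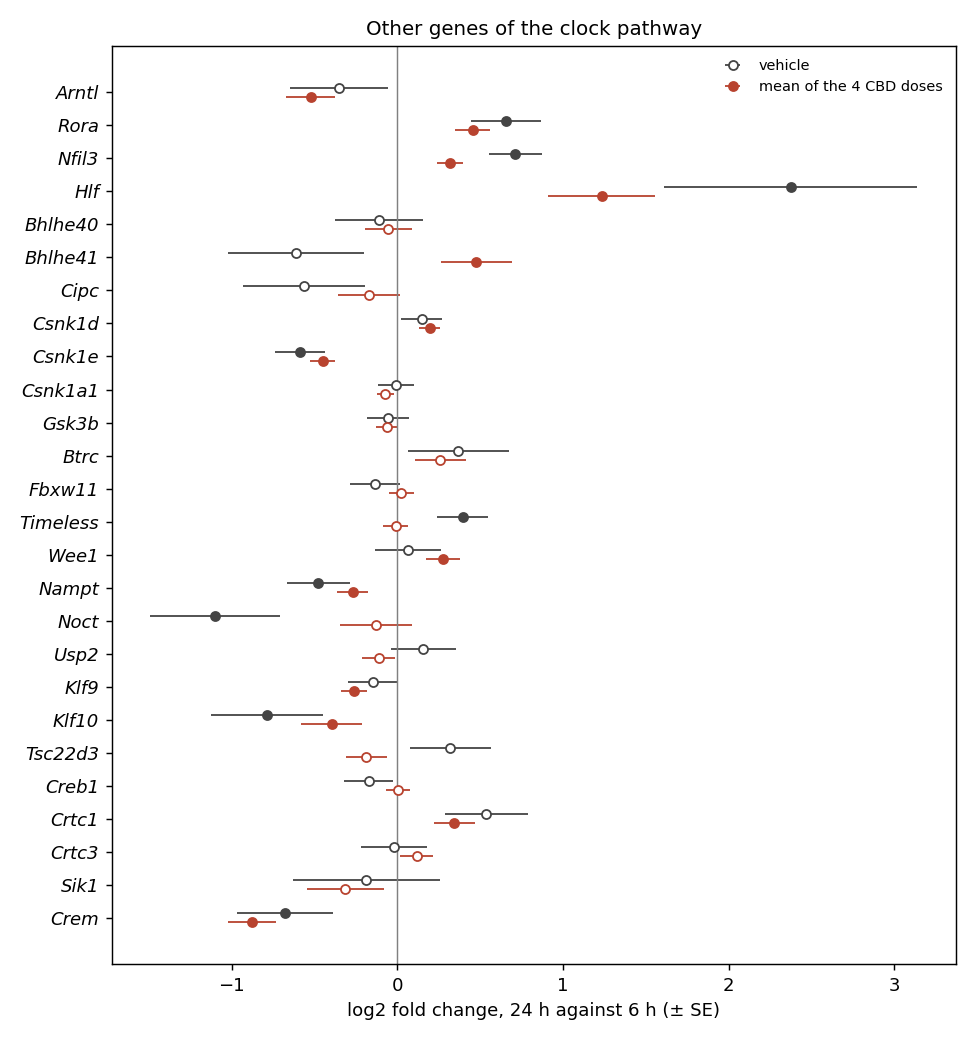
Log2 fold change of 24 h against 6 h for the 26 further clock pathway genes tested, in vehicle (grey) and in the mean of the 4 CBD doses (red), with bars of ± 1 standard error from the fit of all 30 libraries. Filled points passed an edgeR FDR of 0.1. *Hlf* lies farthest to the right, at 2.37 in vehicle, and *Noct* farthest to the left, at −1.10.

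*Per3* had the smallest p of the clock genes in vehicle, and genes with a pattern like it were named by the Pearson correlation over the 10 group means of log2 CPM, among 11139 other genes with at least 10 reads per library on average. The 5 most alike were *Zfhx2* (r = 0.989), *Cemip* (0.986), *Adamts5* (0.984), *Gbf1* (0.984) and *Rsph9* (0.983), and the 5 least alike were *Hspa9* (−0.987), *Lars* (−0.986), *Cct6a* (−0.986), *Cav1* (−0.984) and *Ap1ar* (−0.983). As 670 genes had an r above 0.9, with 5 of the 10 points at each time, these values chiefly describe the split between 6 h and 24 h. Among the clock genes, *Tef* had an r of 0.953, *Nr1d2* of 0.837 and *Clock* of −0.78, and *Arntl* had −0.813.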

How the data were processed

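Libraries of 3′ mRNA-Seq (QuantSeq FWD) from 30 samples of mHypoA-2/12 cells were grouped by the labels. The authors made the deposited counts by trimming with Flexbar, mapping to GRCm39 with STAR (2.7.5c) and counting reads per Ensembl gene with HTSeq (1.99.2). Each file holds raw counts, with no normalization. Reads outside genes (17.7% to 22.2%) were left out of library sizes. Reads on genes ranged from 1839621 to 4420675 per library, so that genes with few reads have wide intervals.

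Counts were tested in R 4.3.3 with edgeR 4.0.16 (filterByExpr, TMM, quasi-likelihood test, a mean per group). All 30 libraries entered the comparisons of time, and the 15 of a time those of CBD with vehicle. The threshold was 0.1 after the Benjamini-Hochberg adjustment over every gene of a comparison. Intervals of 95% use the t distribution of the fit. The steps were tested on simulated data. GENCODE M21 gave symbols for 51948 of 56941 IDs and the positions, which are on GRCm38 while the counts were made on GRCm39.

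All 10 clock genes are named, with *Arntl*, *Npas2*, any gene of the pathway list that passed in a comparison of 24 h with 6 h in vehicle or over the CBD doses, of CBD over the doses with vehicle, or among the doses at a time, and the 10 genes most and least like *Per3*. The genes and lists were chosen with earlier results of these data known. One gene of the pathway list is not reported here. Alternatives were DESeq2 1.42.0, RLE normalization, other filters, fewer groups, a covariate (percent of reads outside genes) and each library left out. The comparisons of 3 µM with the lower doses and of the doses over time, and leaving out each library for the pathway list, were chosen after seeing the data.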

Additional observations from a re-analysis of the deposited data

Results flagged for a closer look

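*Clock* and *Per1* had groups in which every 24 h library lay above every 6 h library and other groups in which every one lay below. For *Clock*, the log2 fold change of 24 h against 6 h was −0.45 in vehicle, −0.34 at 0.325 µM, −0.57 at 0.75 µM and −0.36 at 1.5 µM, and 0.12 at 3 µM. For *Per1* it was 0.82 at 1.5 µM and −0.45 at 3 µM. The difference among the CBD doses was tested and was not called for either gene (edgeR FDR = 0.363 for *Clock* and 0.331 for *Per1*, against 0.0156% of all genes called). Against vehicle, the 3 libraries of 3 µM had *Clock* below all vehicle libraries at 6 h (log2 fold change −0.11) and above all of them at 24 h (0.46), and this difference at a single dose was not tested. The share of reads outside genes at 3 µM was 19.4% to 19.5% at 6 h and 20.8% to 21.7% at 24 h, and its part in these differences between times was not tested at a single dose.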

How the results depend on the processing

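The number of clock genes called was 4 in vehicle for 24 h against 6 h, and from 3 to 5 under the 36 alternatives. With CBD it was 4, and from 4 to 6 under 36. It was 0 under every alternative run for CBD against vehicle at each time, for the difference between the times and for any difference among doses at a time. For 3 µM against the lower doses at 24 h, 1 gene was called, 0 when the share outside genes entered as a covariate, and from 0 to 2 with each library left out. *Clock* lost that call under the covariate and without A16 or A18, and *Per1* gained one without A17 or A19. In 5 other comparisons (24 h against 6 h in vehicle and with CBD, CBD against vehicle at each time, and the difference between the times), of 1336 values of single genes under the alternatives, 1322 kept their side of the threshold, 4 lost a call and 10 gained one, and no called value changed sign, while 24 values of genes not called did. The calls lost there were *Nr1d2* and *Clock* in vehicle. Of those gained, *Cry1* and *Cry2* were in vehicle, and *Per1* (5 libraries in turn) and *Nr1d1* (3 in turn) in the CBD comparison of times. No paired analysis was possible because no replicate number recurs from one group to another. The fit with the compared groups alone had no separate form where all groups of a fit were compared, and the difference among doses over time was not run with DESeq2. *Dbp*, tested once the filter on low counts was dropped, was not called in any comparison.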
